A study of Mus musculus with 6 samples.

Results

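The transcription factors of the naive pluripotent state followed here are Nanog, Esrrb, Zfp42, Tfcp2l1, Tbx3, Klf2, Klf5, Nr0b1, Prdm14 and Nr5a2. Members were all probes of the mouse array whose symbol was 1 of these 10 names, which gave 13 of 25697 probes for 9 of the 16590 named genes on the array. No probe carried the symbol Tfcp2l1, and that factor was not analysed here. Signals came from 6 Illumina bead arrays that cover 3 groups with 2 arrays each. The group piPSC holds mouse pluripotent stem cells induced with recombinant proteins. OG2-MEF are fibroblasts of embryos at embryonic day E13.5 from mice with an Oct4-GFP transgene, a green fluorescent reporter of Oct4, grown on gelatin with serum. ES are embryonic stem cells of the single line R1, grown in serum medium over irradiated fibroblasts as feeders and with the cytokine LIF (leukemia inhibitory factor), and the piPSC labels carry that same culture text. Biological replicates are what the labels call them, with no separate cultures or lines named, so p-values measure only the spread between these samples, which may be technical.

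The naive state is the condition of the pre-implantation epiblast that mouse embryonic stem cells keep in culture. Its factors form a mutually activating network around Oct4 and Sox2. LIF signals into the network through Stat3, whose known targets include Klf4 and Tfcp2l1, and through phosphatidylinositol 3-kinase, to which Tbx3 responds. Wnt signals relieve repression of Esrrb and other factors by Tcf7l1. Nanog is a homeodomain protein, Esrrb, Nr5a2 and Nr0b1 are orphan nuclear receptors, Klf2 and Klf5 are Kruppel-like zinc finger proteins, Zfp42 (Rex1) is a zinc finger protein of the Yy1 family, and Prdm14 is a zinc finger protein that represses fibroblast growth factor signalling and the de novo DNA methyltransferases. Most of these genes are silent in embryonic fibroblasts, although some, such as the Kruppel-like factors and Tbx3, also serve in other tissues.

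Promoter sequence from RefSeq, on assembly GRCm38.p6, was held for 7 of the 10 genes, in 10 windows that run from 250 bases before to 50 bases after an annotated transcript start. The genes with no window were Tbx3, Klf5 and Prdm14. The promoters of Nanog, Zfp42 and Klf2 are shown because they carry the letters of an Oct4 site with a Sox site, an Oct4 site alone, and a run of CpG dinucleotides. Each is the 200 bases that end just before the start, written 5′ to 3′ on the gene's strand. Capitals mark the octamer core, 1 base and the Sox site ACAATG in Nanog (chr6:122707289-122707488, plus strand), ATTTGCAT in Zfp42 (chr8:43307010-43307209, minus strand) and every CG in Klf2 (chr8:72318862-72319061, plus strand).
Nanog: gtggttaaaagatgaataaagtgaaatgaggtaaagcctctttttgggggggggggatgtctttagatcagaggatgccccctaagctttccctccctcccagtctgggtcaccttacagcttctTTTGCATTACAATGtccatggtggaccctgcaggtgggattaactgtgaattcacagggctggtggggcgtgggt
Zfp42: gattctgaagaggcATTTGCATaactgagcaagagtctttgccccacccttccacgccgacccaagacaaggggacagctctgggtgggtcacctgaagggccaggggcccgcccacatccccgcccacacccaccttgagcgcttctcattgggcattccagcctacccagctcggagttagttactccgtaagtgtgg
Klf2: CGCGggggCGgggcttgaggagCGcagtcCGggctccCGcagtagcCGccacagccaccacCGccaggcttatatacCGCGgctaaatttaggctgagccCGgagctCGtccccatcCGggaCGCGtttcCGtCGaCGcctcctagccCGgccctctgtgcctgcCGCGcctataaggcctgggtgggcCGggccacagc
Motifs were searched as letters on both strands. The composite of the octamer core TTTGCAT, any 1 base and ACAATG was found in 2 of 32851 windows of the mouse genome (0.00609%), both of them the overlapping windows of Nanog, where it began 75 bases before the upstream start. The octamer ATTTGCAT, present in 1.74% of windows, began 186 bases before the start of Zfp42. Its core TTTGCAT, which overlaps both of the longer motifs, was in 4.63% of windows and in those of Nanog and Zfp42 among the members. The Kruppel-like factor box GGGNGTGG was in 17.6% of all windows and in those of Nanog, Zfp42, Tfcp2l1 and Nr5a2. The letters AAGGTCA, read by estrogen-related receptors, (4.72% of windows) and the Stat site TTCCNGGAA (1.15%) were in none of the 10 windows. The window of Klf2 held 32 CpG dinucleotides in 300 bases, more than 90.5% of windows, against a median of 7. The other windows held 2 and 7 (Nr5a2), 4 (each of Nanog), 7 (each of Esrrb), 11 (Zfp42), 14 (Nr0b1) and 21 (Tfcp2l1).

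Total signal ran from 13019817 to 19598206 per array, and 46.87% to 52.41% of probes were above background, defined by a detection p-value under 0.05. ES replicate 2 stood apart. Pearson's r of the ES arrays was 0.9649, against 0.9961 for the piPSC arrays and 0.9968 for the OG2-MEF arrays, taken across the 14533 probes above background on both arrays of at least 1 group (probes are no replicates). ES replicate 2 lay more than 2-fold below ES replicate 1 at 952 of these probes (6.55%) and more than 2-fold above it at 41. The fit uses 1 spread per probe for all groups, so its p-values for comparisons with ES may be too small. Cell identity was checked with marker lists. All 8 markers of pluripotent cells were above background on every piPSC and ES array, with a summed signal between 58344 and 69022, and at most 1 of them was above background on an OG2-MEF array, with sums of 191 and 192. These 8 genes are counted again below among the core and partner factors or the target genes, so those lists are not a separate check. Of 14 fibroblast markers, 13 were above background on all 6 arrays, and Postn was on none. Their summed signal was 95502 and 100013 in OG2-MEF, 29149 and 30034 in piPSC, and 22598 and 25867 in ES. The part of feeder fibroblasts in the piPSC and ES signals was not tested.

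In piPSC, all 9 measured genes were higher than in OG2-MEF, from at least 1.97-fold for the dim Nr0b1 to 310-fold for Nanog and at least 397-fold for Esrrb. In ES cells, 8 of the 9 were higher than in OG2-MEF, and Prdm14 was not above background. Directly against ES, Prdm14 was higher in piPSC, Nr5a2 was lower, and the other 7 did not pass the test. Each gene was read from its probe with the highest mean and called changed where limma's adjusted p (Benjamini-Hochberg over all 14533 probes) was under 0.05 and the fold 2 or more. The background was high: of the 9900 genes tested, 20.1% were higher and 21.5% lower in piPSC than in OG2-MEF, 25.1% were higher and 21.6% lower in ES than in OG2-MEF, and between piPSC and ES 3.94% were higher and 4.42% lower in piPSC. The median log2 difference of the 9 genes was 3.50 for piPSC and 3.89 for ES against OG2-MEF. With genes below background set at their bound these medians were the same, since both are the value of Klf2, which was above background on all arrays. That says nothing about the genes with a bound. The median over the brightest probes of all genes was 0.015 and 0.153. Both comparisons use the same fibroblast arrays. In these bulk samples, fewer cells that express a gene and less RNA per cell cannot be told apart. All 9 genes had passed the filter on dim probes in at least 1 group, and 12 of their 13 probes did. Prdm14 passed it only through piPSC, the group where it was called higher. Nanog, Esrrb, Zfp42, Nr0b1 and Nr5a2 passed it only through piPSC and ES, where they were called higher than in OG2-MEF. The calls of these genes against OG2-MEF, and that of Prdm14 against ES, are therefore not independent of the filter. The same holds for the counts of 9 and 8 genes higher than in OG2-MEF. The bounds of Prdm14, 1.99-fold against OG2-MEF and 1.78-fold against ES, lay under 2-fold.

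**Figure D1:**
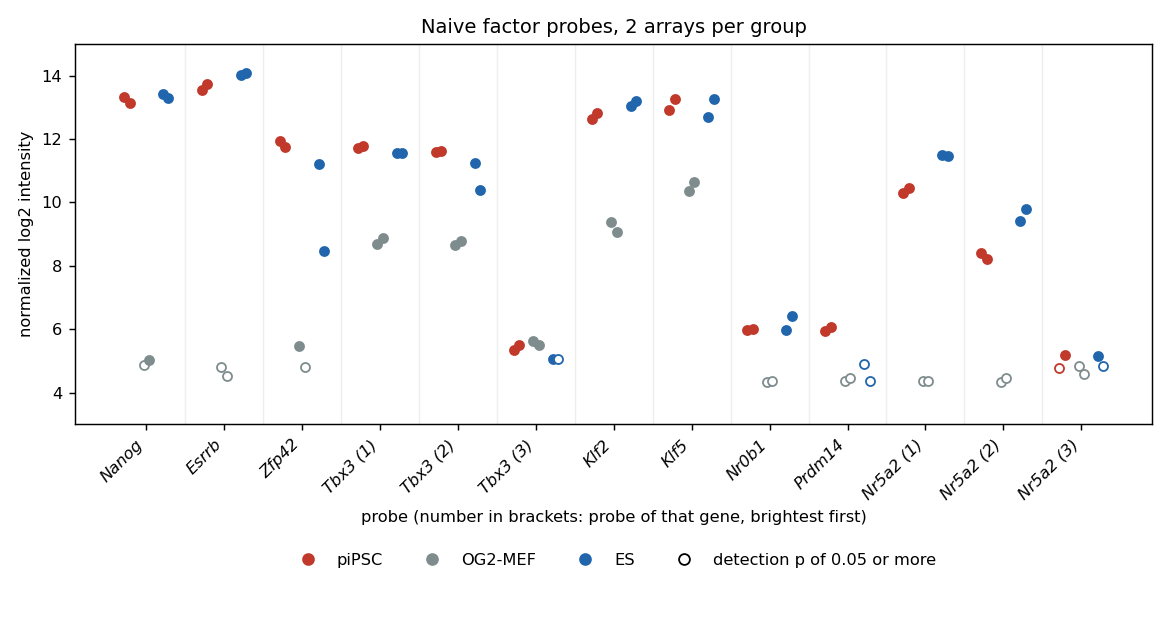
Normalized log2 signal (vertical axis) of all 13 probes of the 9 genes on the 6 arrays, coloured by group, with open points where the detection p was 0.05 or more. The brightest probe of each gene lies higher in piPSC than in OG2-MEF, both ES points of Prdm14 are open, the ES points of Zfp42 lie at 8.48 and 11.20, and the dimmest probes of Tbx3 and Nr5a2 show no such rise.

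Nanog, the homeodomain factor that holds cells in self-renewal, had a log2 signal of 13.34 and 13.13 in piPSC, 4.87 and 5.04 in OG2-MEF, and 13.42 and 13.31 in ES. Both pluripotent groups were far above the fibroblasts, where only 1 of the 2 arrays was above background, and they overlapped each other. The difference from OG2-MEF was 8.28 in piPSC (SE 0.14, 310-fold, adjusted p = 2.6e-06) and 8.41 in ES (340-fold, adjusted p = 2.2e-06), from a fibroblast signal at the detection limit. Between piPSC and ES the difference was -0.13 (95% confidence interval -0.49 to 0.22, adjusted p = 0.51).

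Among the 3 nuclear receptors, Esrrb, which is a main target of Gsk3 and Tcf7l1 in mouse embryonic stem cells, had 13.55 and 13.75 in piPSC, 4.82 and 4.51 in OG2-MEF, and 14.01 and 14.07 in ES. The fibroblast arrays were not above background, and the ES arrays lay above both piPSC arrays. Esrrb was at least 397-fold higher in piPSC and at least 521-fold higher in ES than in OG2-MEF (fitted differences 8.98, SE 0.16, and 9.38). The difference between piPSC and ES was -0.39 (95% confidence interval -0.78 to 0.00) and did not pass the test (adjusted p = 0.11).

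Nr5a2 (Lrh1), a receptor that binds the Oct4 promoter and can take the place of Oct4 in reprogramming of mouse fibroblasts, was the gene with the lower level in piPSC than in ES. Its brightest probe read 10.31 and 10.47 in piPSC, 4.37 and 4.38 in OG2-MEF, and 11.51 and 11.46 in ES. The 3 groups did not overlap, and the fibroblast arrays were not above background. The gene was at least 41.5-fold higher in piPSC and at least 88.7-fold higher in ES than in OG2-MEF (fitted differences 6.02, SE 0.12, and 7.11). Against ES, piPSC differed by -1.10 (SE 0.12, 95% confidence interval -1.40 to -0.79, adjusted p = 0.0043), so the ES signal was 2.14-fold the piPSC signal. A further probe read 8.39 and 8.21 in piPSC, 4.32 and 4.46 in OG2-MEF, and 9.43 and 9.79 in ES. It showed the same order, at least 9.74-fold and 24.2-fold above OG2-MEF in piPSC and ES and with a difference between piPSC and ES of -1.31 (SE 0.17, adjusted p = 0.0061). Without piPSC replicate 1 both calls were lost (adjusted p = 0.057 for the brightest probe and 0.055 for the other). Without piPSC replicate 2 the brightest probe kept its call (-1.18, adjusted p = 0.04) and the other lost it (0.063). A last probe, between 4.60 and 5.18 on all 6 arrays, failed the detection filter.

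Nr0b1 (Dax1), an unusual receptor without the classical DNA-binding domain that represses other nuclear receptors, was dim. Its log2 signals were 5.97 and 6.02 in piPSC, 4.34 and 4.35 in OG2-MEF, and 5.97 and 6.43 in ES, from raw intensities of 91.0 and 94.9, 35.4 and 35.4, and 73.6 and 76.9. All piPSC and ES arrays were above background and no OG2-MEF array was. The gene was at least 1.97-fold higher in piPSC and at least 2.27-fold higher in ES than in OG2-MEF (fitted differences 1.65, SE 0.18, adjusted p = 0.00043, and 1.86, adjusted p = 0.00023). Between piPSC and ES, whose signals touched at 5.97, the difference was -0.21 (95% confidence interval -0.64 to 0.23, adjusted p = 0.40).

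Prdm14, which keeps mouse embryonic stem cells out of the primed state and is needed for primordial germ cells, was the factor with the higher level in piPSC than in ES. It read 5.95 and 6.07 in piPSC, 4.36 and 4.45 in OG2-MEF, and 4.89 and 4.37 in ES, with raw intensities of 90.2 and 97.2, 36.9 and 42.4, and 48.5 and 35.1. The piPSC arrays were the only ones above background. The gene was at least 1.99-fold higher in piPSC than in OG2-MEF (fitted difference 1.61, SE 0.19, adjusted p = 0.00071) and at least 1.78-fold higher than in ES (fitted difference 1.38, 95% confidence interval 0.90 to 1.86, adjusted p = 0.0077). ES and OG2-MEF differed by 0.23 (95% confidence interval -0.25 to 0.70, adjusted p = 0.33). The call against ES did not pass without piPSC replicate 1 (adjusted p = 0.067) or without piPSC replicate 2 (0.072). With an offset of 50 in the background correction the fitted differences fell under 2-fold, at 0.84 against OG2-MEF and 0.74 against ES, and that of Nr0b1 in piPSC against OG2-MEF at 0.85. Such an offset compresses dim probes.

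The Kruppel-like factors Klf2 and Klf5, which with Klf4 share binding sites and can stand in for each other in mouse embryonic stem cells, were already expressed in the fibroblasts. Klf2 had 12.64 and 12.81 in piPSC, 9.37 and 9.08 in OG2-MEF, and 13.03 and 13.21 in ES. All arrays were above background, the OG2-MEF arrays were lowest, and the ES arrays lay above the piPSC arrays. Klf2 was 11.3-fold higher in piPSC (log2 difference 3.50, SE 0.16, adjusted p = 2.2e-05) and 14.8-fold higher in ES (3.89). Between piPSC and ES the difference was -0.39 (95% confidence interval -0.79 to 0.00, adjusted p = 0.11).

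Klf5 had 12.92 and 13.27 in piPSC, 10.36 and 10.66 in OG2-MEF, and 12.70 and 13.26 in ES. Pluripotent groups overlapped and both lay above the fibroblasts. The rise was 5.97-fold in piPSC (2.58, SE 0.24, adjusted p = 0.00025) and 5.53-fold in ES (2.47, adjusted p = 0.00026), and piPSC and ES differed by 0.11 (95% confidence interval -0.48 to 0.70, adjusted p = 0.75). The sign of that last difference turned when piPSC replicate 2 (-0.07) or ES replicate 1 (-0.17) was left out.

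Tbx3, a T-box repressor that acts downstream of LIF in mouse embryonic stem cells, was also above background in fibroblasts. Its brightest probe gave 11.71 and 11.77 in piPSC, 8.69 and 8.87 in OG2-MEF, and 11.57 and 11.55 in ES. The fibroblasts were lowest, and the piPSC arrays lay slightly above the ES arrays. Tbx3 was 7.76-fold higher in piPSC (2.96, SE 0.13, adjusted p = 1.9e-05) and 6.85-fold higher in ES (2.78), with a difference of 0.18 between them (95% confidence interval -0.13 to 0.49, adjusted p = 0.31). A further probe read 11.59 and 11.62 in piPSC, 8.67 and 8.79 in OG2-MEF, and 11.25 and 10.39 in ES. Here ES replicate 2 was the lower ES array by 0.86, and the difference of 0.79 between piPSC and ES had an adjusted p of 0.083, or 1.21 with 7.4e-05 without ES replicate 1. The third probe was dim, between 5.05 and 5.62, and did not share the rise: it differed from OG2-MEF by -0.14 in piPSC (adjusted p = 0.37) and by -0.50 in ES (adjusted p = 0.015, under 2-fold).

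Zfp42 (Rex1), a common marker of the naive state, had the widest spread between ES arrays among the 13 probes. It read 11.95 and 11.75 in piPSC, 5.46 and 4.82 in OG2-MEF, and 11.20 and 8.48 in ES, with raw intensities in ES of 2040 and 261. The piPSC arrays were highest, the ES arrays lay far apart (SD 1.93, n = 2), and 1 of the 2 fibroblast arrays was above background. The gene was 105-fold higher in piPSC (6.71, SE 0.83, adjusted p = 0.00077) and 26-fold higher in ES (4.70, adjusted p = 0.0029) than in OG2-MEF. The ES difference was 3.35 without ES replicate 1 and 6.07 without ES replicate 2. Its fall of 2.73 from ES replicate 1 to ES replicate 2 was the 156th lowest of 14533 such differences, whereas Nanog differed by -0.10 between the same arrays. The authors' deposited normalized values placed the ES arrays at 11.20 and 8.54. The difference of 2.01 between piPSC and ES (95% confidence interval -0.02 to 4.04) did not pass the test (adjusted p = 0.12). It was 0.64 (adjusted p = 0.068) without ES replicate 2 and 3.37 (adjusted p = 1.9e-06) without ES replicate 1, which leaves 1 ES array whose spread is taken from the other groups. Zfp42 has 1 probe on the array, so no further probe can be set beside it.

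**Figure D2:**
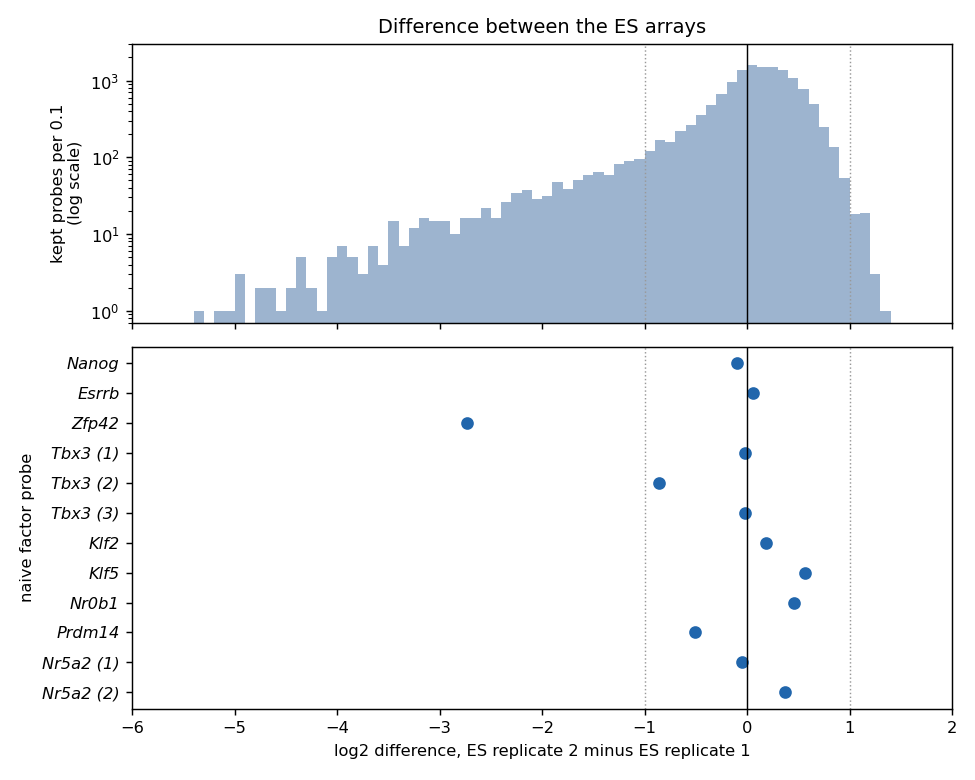
Log2 difference of ES replicate 2 minus ES replicate 1, as a histogram of the 14533 kept probes (log count axis) above and for each of the 12 kept factor probes below, with dotted lines at 2-fold. Zfp42 lies at -2.73, outside the 2-fold lines, a Tbx3 probe at -0.86 and Nanog at -0.10.

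**Figure D3:**
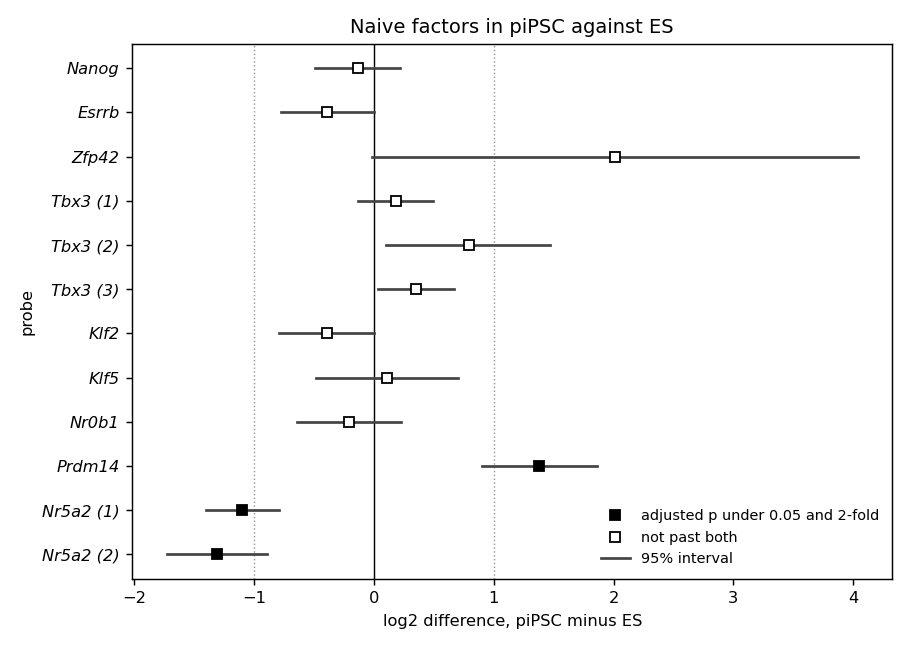
Log2 difference of piPSC minus ES for each of the 12 kept probes, with its 95% confidence interval from the limma fit, filled where the adjusted p was under 0.05 and the fold at least 2 (dotted lines mark 2-fold). The intervals of both Nr5a2 probes lie below 0 and that of Prdm14 above 0, and the interval of Zfp42 is the widest, from -0.02 to 4.04.

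The order of the 3 groups differed among the factors. Esrrb, Klf2 and Nr5a2 had both ES arrays above both piPSC arrays, and only the Nr5a2 difference passed the test. Prdm14, Zfp42 and the brightest Tbx3 probe had both piPSC arrays above both ES arrays, and only the Prdm14 difference passed. Over all kept probes, 70.0% had arrays of piPSC and ES that did not overlap, so an order without overlap says little with 2 arrays a group. The median difference between piPSC and ES over the brightest probes of all genes was -0.176, lower in piPSC. As a description over 6 arrays that fall into 3 groups, Pearson's r of each gene with the members' mean standardized profile was 0.999 for Tbx3, 0.994 for Nanog, 0.945 for Zfp42 and 0.667 for Prdm14. That mean includes the gene itself, which tends to raise its r. The genes outside the set with the profile most like that mean were Aoah (r = 0.9998), AU018091 (0.9996), Stxbp2 (0.9995), Prmt5 (0.9994) and Aldoc (0.9994). Of 9891 genes ranked, 1266 had an r over 0.95, so a likeness of this size was common.

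Most of the factors that work with the naive set were higher in both pluripotent groups. Of 11 tested core and partner factors, 8 were higher and 0 lower in piPSC than in OG2-MEF (median 2.23), and 9 and 0 in ES (median 2.70). In piPSC, Zfp281 (0.42), Ncoa3 (-0.09) and Zfx (-0.65, adjusted p = 0.0097, under 2-fold) were not called, and in ES Ncoa3 (0.36) and Zfx (-0.51). In piPSC the Oct4 gene Pou5f1 was higher by at least 452-fold, Sall4, which encodes a zinc finger partner of Oct4, by at least 239-fold and Sox2 by at least 19.7-fold, while Mybl2, a cell cycle factor, rose by 4.04. None of the 11 changed between piPSC and ES by the limma test, and 5 had an unadjusted p under 0.05, among them Klf4 (-0.66, adjusted p = 0.016, under 2-fold). Other probes of these genes gave larger gaps between piPSC and ES: 3.75 for Pou5f1, 2.10 for Sox2, 2.21 for Sall4, 4.08 for Mybl2 and 1.2 for Kdm3a (-0.4 on the probe used). The probes of Sall4 and Mybl2 that gave these gaps differed between ES and OG2-MEF by 0.03 and -0.34.

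Of 12 LIF and Wnt genes, 6 were higher and 1 lower in piPSC than in OG2-MEF (median 0.84), and 5 and 0 in ES (median 0.26). Under median scaling the piPSC counts were 4 higher and 3 lower, and without ES replicate 2 the ES counts were 6 and 0 with a median of 0.89. Gbx2, a homeobox target of LIF and Stat3, was at least 36.2-fold higher in piPSC, and Socs3, the feedback inhibitor of that pathway, rose by 3.06 (SE 0.13). The kinase gene Pim3 rose by 2.14, and the LIF receptor gene Lifr by 1.14. Stat3 itself differed by 0.03 (adjusted p = 0.85) on its brightest probe, and another of its probes gave -0.59 in piPSC and -2.62 in ES against OG2-MEF and 2.03 between piPSC and ES. Il6st, which encodes the shared receptor subunit gp130, was the gene that fell, by 1.13 on the log2 scale (adjusted p = 0.0015). Tcf7l1, the repressor of Esrrb and Nanog, rose by 1.18. Spry4 rose by 1.34 (adjusted p = 0.021), a call that was lost without either piPSC array or OG2-MEF replicate 2. None of the 12 changed between piPSC and ES by the limma test, and 6 had an unadjusted p under 0.05.

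All 10 tested target genes of the naive state rose in both piPSC and ES. Their median was 5.52 in piPSC and 5.54 in ES, or 5.21 and 5.17 with the 7 genes below background in OG2-MEF at their bound. Those 7 passed the detection filter only through groups where they were higher. In piPSC, Dppa5a rose by 9.87 from fibroblast signals near background, Fbxo15 was at least 411-fold higher, Dppa3 (Stella), a maternal factor that protects methylation, at least 73.0-fold and Tcl1, a coactivator of Akt and a target of Esrrb, at least 64.2-fold. Against ES, 2 were higher and 1 lower in piPSC. Dppa3 had 11.09 and 11.31 in piPSC and 9.02 and 9.29 in ES (difference 2.05, adjusted p = 0.0012). The growth factor gene Fgf4 had 7.72 and 7.64 against 6.28 and 5.95 (1.56, adjusted p = 0.0027). Tdgf1, a Nodal coreceptor, had 8.96 and 8.63 against 9.90 and 10.49 (-1.40, adjusted p = 0.011), and this call was lost without either piPSC array (adjusted p = 0.066 and 0.09). Another Tdgf1 probe gave -0.63, under 2-fold. Between piPSC and ES, other probes had the reverse sign for Jam2 (0.68, 0.74 and 0.89, against -0.69 on the probe used), Pecam1 (-1.43 against 1.23) and Tcl1 (0.55 against -0.18). These genes were not called on the probe used.

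Factors of the later, formative and primed states were more often higher than lower. Of 9 tested, 6 were higher and 1 lower in piPSC than in OG2-MEF (median 3.17), and 5 and 1 in ES (median 1.40, or 0.97 at the bounds). The de novo methyltransferase gene Dnmt3b rose by 5.31 in piPSC (SE 0.13), the epithelial factor Grhl2 was at least 21.7-fold and Otx2 at least 18.8-fold higher. Another Dnmt3b probe rose by 2.6 in piPSC and gave -1.01 between piPSC and ES, against -0.11 on the probe used. Fgf5, a growth factor gene and marker of the primed epiblast, was the gene that fell: it was not above background in piPSC or ES and was lower by at least 1.94-fold and 1.69-fold (fitted differences -1.18 and -1.55). Its probe passed the detection filter only through OG2-MEF. In the authors' deposited normalized values and with an offset of 50, no gene of this list was called lower in piPSC. With that offset none was called lower in ES. In piPSC, Sox4 (-0.95) and Etv4 (-0.03) were not called. Between piPSC and ES, Zic2, a zinc finger factor, was the gene that changed, with 8.61 and 8.96 in piPSC and 6.48 and 4.57 in ES (3.26, adjusted p = 0.015). The difference was 2.28 without ES replicate 2, and the call was lost without either piPSC array (adjusted p = 0.093 and 0.1) or either OG2-MEF array (0.052 each).

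Calls among paralogues of the factors went both ways for Kruppel-like factors, nuclear receptors and T-box genes. Over all genes tested, 20.1% were higher and 21.5% lower in piPSC than in OG2-MEF, and 25.1% and 21.6% in ES. With 10 or fewer genes tested per family, such counts say little about a family. Among 10 tested Kruppel-like factors, 3 were higher and 2 lower in piPSC (median 0.07, which turned to -0.10, with 3 higher and 4 lower, when arrays were scaled to the same median), and 3 and 3 in ES. Klf4 rose by 2.23 and Klf9 by 1.82, while Klf13 fell by 2.01 and Klf7 by 1.70. Of 10 tested nuclear receptors, 2 were higher and 4 lower in piPSC (median -0.87, or -0.67 at the bounds), and 2 and 2 in ES. Nr6a1, a germ cell receptor, rose by 2.88 and Rxra by 1.42. The COUP-TF genes Nr2f1 and Nr2f2, receptors of mesenchyme that repress Oct4 in differentiating cells, fell by 2.93 and at least 3.45-fold. Of 8 T-box genes on the array, 3 were tested. Each was above background only in the groups where it was higher, so the detection filter all but fixed a difference. Tbx2, the nearest relative of Tbx3, was at least 2.86-fold and Tbx18 at least 2.60-fold lower in piPSC, and Eomes was at least 2.00-fold higher. The list of the Prdm, grainyhead, Yy1 and related families had 7 tested genes, none of them of the Yy1 family. Of these, 4 were higher and 0 lower in piPSC (median 1.18, or 0.93 at the bounds), and 3 and 0 in ES (median 0.94, or 1.71 with 4 higher without ES replicate 2). Those called in piPSC were Cbfa2t2, the corepressor partner of Prdm14, which rose by 1.51, and the grainyhead genes Grhl1 (1.18), Grhl2 and Grhl3. Grhl2 was also counted above among the formative and primed factors, and Klf4 among the core and partner factors. Eomes is counted again below among the trophoblast markers. Prdm4 (-0.6), the tested Prdm gene, was not called. In the authors' deposited normalized values Rxra, Tbx18 and Grhl1 fell short of 2-fold (1.00, -0.99 and 0.75). Grhl3 (1.47, adjusted p = 0.035) lost its call without any 1 of the 4 piPSC and OG2-MEF arrays. Between piPSC and ES, 1 of all these paralogues changed: Klf16, at 9.41 and 9.48 in piPSC and 8.67 and 7.39 in ES (1.42, adjusted p = 0.044). The piPSC mean lay 0.78 above ES replicate 1, and no Kruppel-like paralogue was called without ES replicate 2 or under median scaling. The count rests on the brightest probes: other probes gave differences between piPSC and ES of 2.92 for Rarg (0.22 on the probe used) and 1.34 for Prdm4 (-0.46). Further probes of other paralogues in these lists differed by less than 2-fold.

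**Figure D4:**
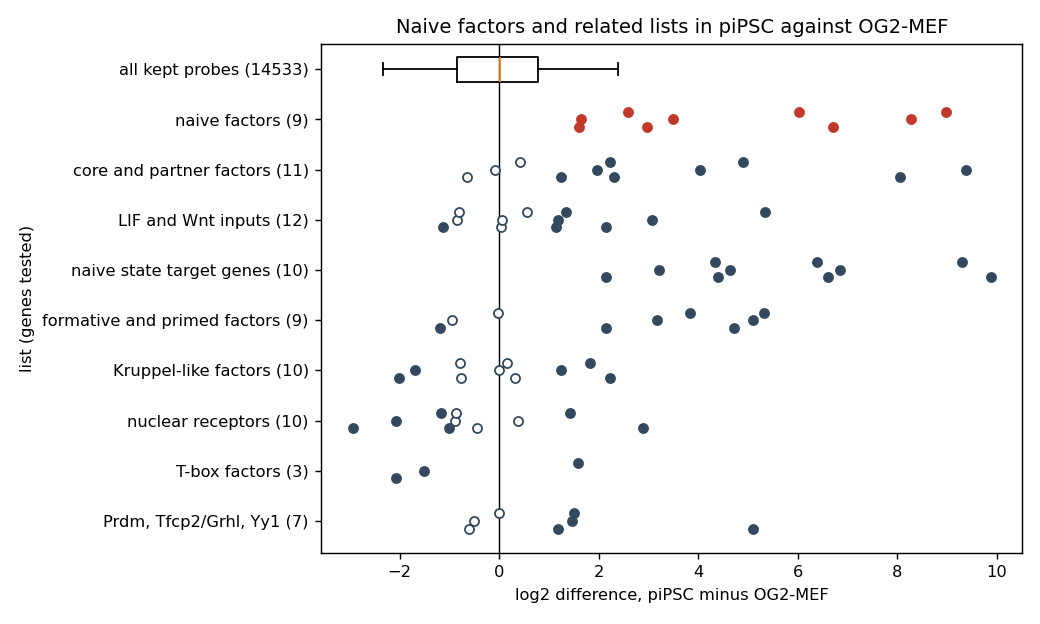
Log2 difference of piPSC minus OG2-MEF (horizontal axis) for each tested gene of the 9 factors and the related lists, by its brightest probe, with filled points for changed genes. The box gives the median and quartiles of all 14533 kept probes and its whiskers the 5th to 95th percentile. All 9 factors and all 10 target genes lie above 0, while the Kruppel-like, nuclear receptor and T-box families spread to both sides.

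Markers of other cell types were set beside these results. Of 13 tested fibroblast markers, 11 were lower and 2, Dcn and Lum, higher in both piPSC and ES than in OG2-MEF (medians -2.19 and -2.28), and none changed between piPSC and ES by the limma test, with an unadjusted p under 0.05 for 3. These counts rest on the brightest probes: other probes gave differences between piPSC and ES of 4.10, 3.20 and 0.37 for Acta2 (0.36 on the probe used) and of 1.11 for Dcn (-0.04). Among 4 tested markers of extraembryonic endoderm, 2 were higher and 2 lower against OG2-MEF in each group, and none changed between piPSC and ES, with an unadjusted p under 0.05 for 2. Of 5 tested trophoblast markers, 3 were higher and 1 lower in each group against OG2-MEF. Cdx2, the trophoblast homeobox gene, was the gene that changed between piPSC and ES, at 5.88 and 5.73 in piPSC and 7.97 and 8.14 in ES (-2.25, adjusted p = 0.00063). Of 2 tested macrophage markers, 1 was lower in each group. The part of such cells in the levels of the factors was not tested.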

How the data were processed

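The authors' deposited table gave, for each probe on each array, a linear raw intensity and, per the file headers, a detection p-value. The authors also deposited a matrix of log2 values, which quantile normalization of the log2 intensities without background correction matched within 0.0012, so their scale was log2, with no centring of genes and a column median of 5.89. For scanner and upstream software, the sources used here give nothing. Per the labels' protocols, labelling started from 500 ng of total RNA. The function neqc (limma 3.58.1, R 4.3.3) applied normexp background correction by detection p-value, an offset of 16, quantile normalization and a log2 transform. Symbols were updated to the gene table of GRCm38.p6, also the source of chromosomes: 23978 probes had 1 symbol (23962 through Entrez, 9 through accessions, 7 from the array table), 0 several and 1719 none. A filter kept 14533 probes, those detected (p under 0.05) by both arrays of some group. These were fitted with lmFit and eBayes in 1 model of 3 group means (3 residual degrees of freedom, prior 2.89), with Benjamini-Hochberg adjustment within each comparison. All gene p-values are limma's. Standard errors (SE) of log2 differences are moderated, and n is 2 arrays per group. Where 1 group had no array above background, "at least" marks a bound: the mean of the other group over the dim arrays' mean, each dim array taken at its lowest detected signal or at the probe's signal, whichever was higher. The fitted difference is then no bound. The number of arrays limits the precision, and the fit was tested on simulated data.

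Members and lists were chosen with earlier results of these data known. Of each related list, up to 4 changed genes with the largest difference between piPSC and OG2-MEF are named, with up to 3 each way between piPSC and ES and the 5 genes most like the members' profile. Genes named outside this rule (Lifr, Il6st, Stat3, Tcf7l1, Zfp281, Ncoa3, Zfx, Kdm3a, Jam2, Pecam1, Fgf5, Sox4, Etv4, Klf16, Rarg, Prdm4, Cdx2, Dcn, Lum, Acta2) were chosen after their values were seen. Alternatives covered the authors' matrix, background offset, scaling, detection filter, probe choice, fold threshold, test settings, array weights, a replicate block and each array left out.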

Additional observations from a re-analysis of the deposited data

How the results depend on the processing

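The 9 and 8 factors changed in piPSC and ES against OG2-MEF became 7 and 7 with an offset of 50, and were 9 and 8 in every other setting run, leaving out any array included (ranges 9 to 9 and 8 to 8). The 2 factors changed between piPSC and ES became 1 with an offset of 50 and 0 in a test against a 2-fold change (treat), and 0 to 3 when an array was left out: piPSC replicate 1 gave 0 when left out, piPSC replicate 2 gave 1 and ES replicate 1 gave 3. The 1602 probes changed between piPSC and ES became 933 with an offset of 50, 846 with 1 probe per gene (fewer tested), 1047 with only the 2 groups fitted, 3419 at a 1.5-fold threshold, 254 with treat, and 426 to 3033 when an array was left out (426 and 620 without piPSC replicate 1 or 2, 3033 without ES replicate 1, 1020 without either OG2-MEF array). Treat called 3257 of the 5830 probes changed between piPSC and OG2-MEF and 4137 of the 6775 between ES and OG2-MEF, and leaving out an array gave 5464 to 6040 and 6331 to 7398. Differences that turned sign were not called in any direction: Nr0b1 between piPSC and ES was 0.04 under median scaling and ran from -0.44 to 0.02 over the arrays left out, Klf5 from -0.17 to 0.39 (-0.07 without piPSC replicate 2), and Prdm14 in ES against OG2-MEF from -0.03 to 0.52. The cause was not tested. Median scaling moved the median of all probes by -0.20 in piPSC and -0.22 in ES against OG2-MEF, and the changed probes from 2776 higher and 3054 lower to 2175 and 3794 in piPSC, and from 3374 and 3401 to 2697 and 4050 in ES. The split of piPSC against ES, 1017 higher and 585 lower, was 835 and 260 in the authors' matrix and 720 and 213 with an offset of 50, but turned to 407 higher and 439 lower with 1 probe per gene and to 1511 and 1908 at a 1.5-fold threshold.

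The labels do not say whether same-numbered replicates were paired. Deviations of same-numbered arrays correlated at 0.0776 (piPSC and OG2-MEF), 0.00356 (piPSC and ES) and 0.251 (OG2-MEF and ES). With 2 arrays per group, these values cannot settle whether there was a pairing. With the replicate block the changed probes were 5846, 6802 and 1614 in piPSC against OG2-MEF, ES against OG2-MEF and piPSC against ES, and the changed factors 9, 8 and 2. Signal over background limits Nr0b1 and Prdm14, whose brightest raw intensities were 94.9 and 97.2.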
